A study of Mus musculus with 10 samples.

Results

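The 34 genes described here encode the enzymes of glycolysis, the transporters that bring glucose in and lactate out, the oxygen sensors that set the activity of the hypoxia-inducible factors, and a set of well-known targets of those factors. They were taken by symbol from a list of such genes. All 34 were found among the 28454 gene symbols of the deposited tables, and each was above 0 in every library.

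RNA-seq was done on CD31+ cells isolated by magnetic sorting from B16F10 melanomas, after cells carrying the myeloid protein CD11b had been depleted. B16F10 is a mouse melanoma cell line, and CD31, encoded by Pecam1, is a surface protein of endothelial cells. The Shb-inactivated group had 6 libraries from adult mice of the strain Shbflox/flox/Cdh5-CreERt2, and the wild-type group had 4 libraries from adult Cdh5-CreERt2 mice. Both groups therefore carried the same inducible Cre recombinase, driven by the endothelial cadherin gene Cdh5, and only the first had floxed Shb alleles. The design text counts 6 and 4 mice. The source label names both tumours and lungs for every library, while the tissue label names tumours. Shb encodes an adaptor protein that acts below tyrosine kinase receptors such as the main VEGF receptor of endothelium.

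Glycolysis splits glucose into pyruvate in the cytosol, and endothelial cells draw most of their energy from it even when oxygen is present. When oxygen is low, prolyl hydroxylases no longer mark HIF-1α and HIF-2α for destruction. The stabilised factors then bind a short DNA word near genes for glucose uptake, glycolytic enzymes, lactate export, pH control and mitochondrial turnover. Several steps have paired isoforms, such as Hk1 and Hk2 or Slc2a1 and Slc2a3, which differ in the tissues that use them and in their response to low oxygen.

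The core of that DNA word is ACGTG, which was looked for on both strands in the 250 bases before each annotated start in RefSeq promoters of build GRCm38.p6. Of the 34 genes, 30 had an entry, with 42 windows in all. The word was in 20 of these 42 windows (47.6%), against 5444 of 32851 windows of all genes (16.6%). Counted by gene it was in at least 1 window of 18 of the 30 members (60%), against 18.5% of all genes. The listed genes include textbook targets of the factors, and the windows were not matched for base composition, so the reason for this difference was not tested. Of the members, 8 varied more than 6-fold between their highest and lowest library. The windows of Hk2, Car9, Egln3, Bnip3 and Ankrd37, 5 of those 8, held the word and are shown with that of Slc2a1, the main glucose transporter. Eno2, Aldoc and Pfkfb4, the other members that varied this widely, had no ACGTG in their windows. Capitals mark ACGTG or its reverse complement CACGT in the 5′ to 3′ sequence of the gene's own strand. A run of 6 capitals is the word read on both strands. A match is a run of letters and not a measured binding site.
Hk2 (chr6:82774455-82774704, minus strand): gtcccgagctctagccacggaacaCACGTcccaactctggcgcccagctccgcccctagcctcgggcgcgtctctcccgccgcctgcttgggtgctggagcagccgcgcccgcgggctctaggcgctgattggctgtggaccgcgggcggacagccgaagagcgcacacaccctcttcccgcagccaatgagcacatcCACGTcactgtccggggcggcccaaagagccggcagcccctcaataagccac
Car9 (chr4:43506776-43507025, plus strand): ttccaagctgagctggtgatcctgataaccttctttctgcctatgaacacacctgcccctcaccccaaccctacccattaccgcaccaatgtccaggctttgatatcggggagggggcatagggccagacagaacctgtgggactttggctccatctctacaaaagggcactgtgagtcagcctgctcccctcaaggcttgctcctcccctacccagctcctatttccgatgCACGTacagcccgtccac
Egln3 (chr12:54203875-54204124, minus strand): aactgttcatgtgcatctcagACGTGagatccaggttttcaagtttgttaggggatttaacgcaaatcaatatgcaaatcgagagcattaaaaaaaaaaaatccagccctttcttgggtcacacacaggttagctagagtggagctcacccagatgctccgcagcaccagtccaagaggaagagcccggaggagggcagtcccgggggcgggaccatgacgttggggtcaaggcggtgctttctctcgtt
Bnip3 (chr7:138909507-138909756, minus strand): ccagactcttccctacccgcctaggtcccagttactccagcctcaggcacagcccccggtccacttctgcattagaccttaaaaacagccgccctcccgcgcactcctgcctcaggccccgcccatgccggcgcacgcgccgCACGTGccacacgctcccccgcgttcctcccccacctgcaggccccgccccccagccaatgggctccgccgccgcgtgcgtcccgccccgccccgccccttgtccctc
Ankrd37 (chr8:45999851-46000100, minus strand): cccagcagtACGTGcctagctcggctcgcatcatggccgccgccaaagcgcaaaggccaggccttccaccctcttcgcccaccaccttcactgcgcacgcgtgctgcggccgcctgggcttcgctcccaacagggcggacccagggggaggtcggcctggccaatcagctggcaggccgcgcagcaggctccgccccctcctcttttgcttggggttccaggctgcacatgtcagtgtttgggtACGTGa
Slc2a1 (chr4:119108495-119108744, plus strand): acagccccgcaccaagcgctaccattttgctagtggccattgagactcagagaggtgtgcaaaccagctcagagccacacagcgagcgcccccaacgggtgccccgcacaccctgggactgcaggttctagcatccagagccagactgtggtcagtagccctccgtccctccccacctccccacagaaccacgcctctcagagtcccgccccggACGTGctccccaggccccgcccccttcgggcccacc

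Values are FPKM, fragment numbers divided by transcript length and by the total mapped in a library, so levels can be compared between genes. FPKM summed to 477329 to 565184 in the Shb-inactivated libraries and 512696 to 576687 in the wild-type libraries, and sequencing depth is unknown. Shb averaged 0.94 ± 0.41 FPKM in Shb-inactivated libraries (SD, n = 6) and 3.68 ± 1.19 FPKM in wild-type libraries (SD, n = 4). These groups did not overlap, and the exact permutation p of 0.00476 is the smallest that 210 splits can give. All 15 endothelial markers were present in every library, with summed levels of 3801 to 5301 FPKM in Shb-inactivated and 3309.6 to 4275.5 FPKM in wild-type libraries. Pecam1, the gene of the sorted protein, averaged 963 ± 137 FPKM in Shb-inactivated and 759 ± 138 FPKM in wild-type libraries. Other cells were present too. The log2 difference between Shb-inactivated and wild-type libraries was above 0 for all 15 endothelial markers (median 0.31). Of these, 3 were higher at an unadjusted limma p under 0.05. The groups of Pecam1, Sox17 and Ptprb, the last 2 chosen after their values had been seen, did not overlap. All 10 pericyte and smooth muscle markers were above 0 too (median 0.25, 1 of them higher at that unadjusted p). Below 0 were all 13 melanoma markers (median -1.36, 3 of them lower at that unadjusted p), all 15 macrophage and monocyte markers (median -0.76, 0 of them), all 10 tested T and B cell markers (median -0.90, 4 of them) and all 6 platelet markers (median -0.86, 2 of them). By mean FPKM instead of its logarithm, 5 of the 15 macrophage and monocyte markers were higher in Shb-inactivated libraries. Of the 5 tested fibroblast markers, 1 was above 0 and 4 were below (median -0.74). Of the 4 tested red cell markers, 2 were above 0 and 2 were below. The 2 tested neutrophil markers were below 0 (median -1.98). The median of all genes tested was 0.01, and 0 of these markers passed the adjusted limma test. Of all genes tested, 1.69% were higher and 1.76% lower at that unadjusted p, and the groups of 0.718% did not overlap. Itgam, which encodes the depleted CD11b, was 29.3 and 35.9 FPKM in Shb-inactivated replicates 3 and 4 and at most 0.42 FPKM in the other 4, and it was 2.27, 5.85, 109 and 0.20 FPKM in wild-type libraries. Summed macrophage and monocyte markers were 4971.4 and 4310.04 FPKM in Shb-inactivated replicates 3 and 4 and 6788 FPKM in wild-type replicate 3, against 48.9 to 72.1 FPKM in the other Shb-inactivated libraries and 49.6 to 621 FPKM in the other wild-type libraries. Neutrophil markers summed to 1018 FPKM in wild-type replicate 3 and to at most 28.8 FPKM elsewhere. Summed melanoma markers were 20.7 to 457 FPKM in Shb-inactivated libraries, and 1335, 236, 377 and 106 FPKM in wild-type libraries. Small nucleolar RNAs were low in Shb-inactivated replicates 1 and 2 and in wild-type replicate 1, at 636, 1846 and 1851 FPKM in sum, against 3138 to 11473 FPKM elsewhere. The small values that FPKM steps take were also coarser in wild-type replicate 1 and Shb-inactivated replicate 2 than elsewhere, which makes low genes least precise there.

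No member was called different between the Shb-inactivated and wild-type libraries, by a test that called no gene at all. Shb itself, whose groups did not overlap, was not called either, so the absence of calls does not show an absence of change. The test was limma on log2(FPKM + 1), adjusted over the 12805 genes that reached 1 FPKM in at least 4 libraries, and 33 of the 34 members passed that filter. With limma 0 members passed the adjusted threshold of 0.05, where 0% of all genes did, Shb included (adjusted p = 0.989). At an unadjusted p under 0.05, 0 members were higher, where 1.69% of all genes were, and 1 member was lower, where 1.76% of all genes were. That member was Slc2a3. The groups of 0 of 34 members failed to overlap, against 0.718% of all genes tested. The median log2 difference of the members was -0.04 and that of all genes tested 0.01, with 14 members above 0 and 19 below. These p-values measure only the spread between the 6 and 4 libraries.

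**Figure D1:**
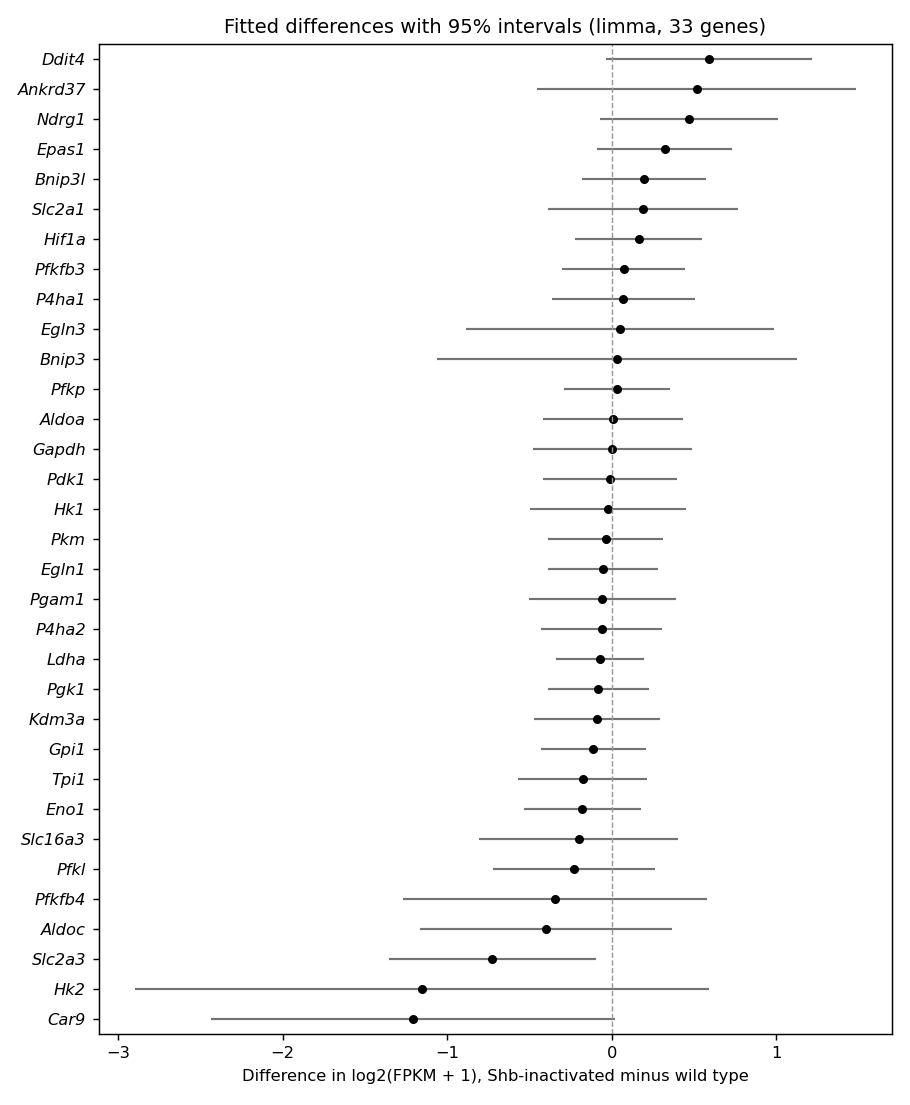
Differences in log2(FPKM + 1), Shb-inactivated minus wild type, with 95% intervals from limma for the 33 members tested, ordered by size. Only the interval of Slc2a3 lies wholly on one side of 0, and those of Hk2 and Car9 are the widest.

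How tightly the data bound each difference varied widely between the members. For 19 of the 33 the 95% interval lay within 1.5-fold either way (0.585 log2 units), and for 24 it lay within 1 log2 unit. The narrowest intervals belonged to abundant enzymes such as Ldha (-0.34 to 0.19). The widest belonged to Hk2 (-2.90 to 0.59) and Car9 (-2.44 to 0.02), for which these libraries cannot tell a several-fold drop from no difference. Together the 34 genes took between 0.611% and 0.979% of all FPKM in Shb-inactivated libraries, and between 0.705% and 0.854% in the wild-type group, so the ranges overlapped.

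**Figure D2:**
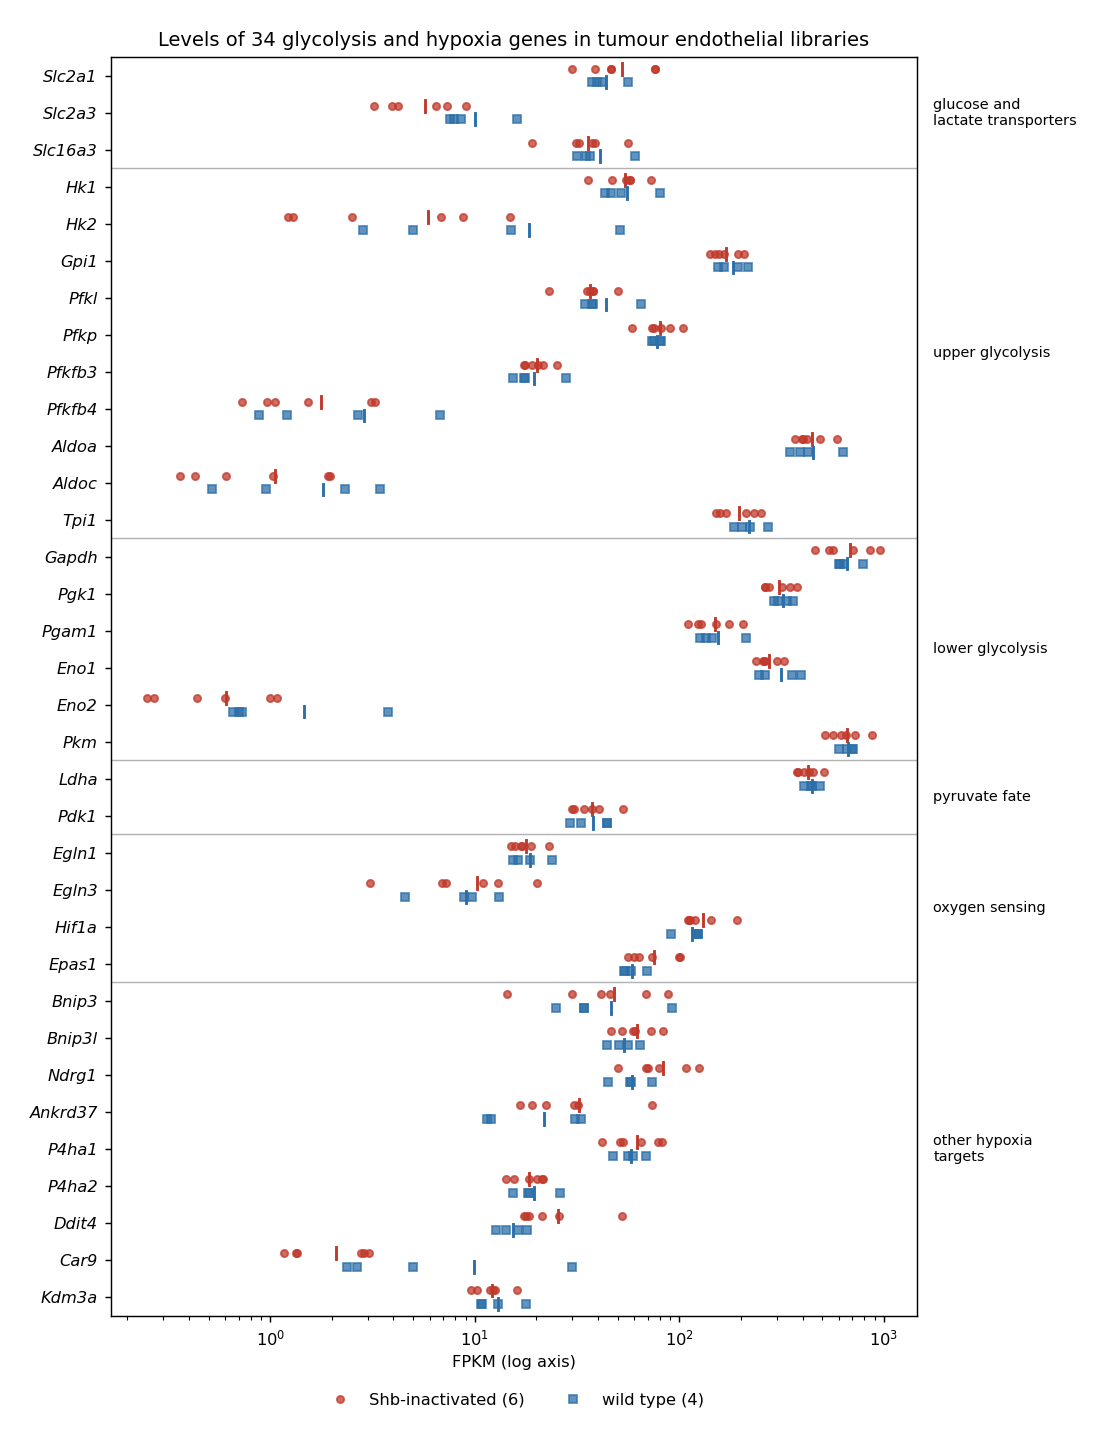
FPKM of the 34 members on a log axis, by role, with one point per library (circles, 6 Shb-inactivated; squares, 4 wild type) and a vertical bar at each group mean. Gapdh and Pkm lead at over 600 FPKM, Eno2, Aldoc and Pfkfb4 are lowest, and the groups overlap for every member.

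Glucose enters endothelium mainly through GLUT1, the product of Slc2a1, and its transcript was more abundant than that of GLUT3, the product of Slc2a3, in every library. Slc2a1 was 29.9 FPKM at its lowest, 46.4 FPKM at the median and 76.1 FPKM at its highest in Shb-inactivated libraries, and 37.3, 39.7, 55.9 and 42.0 FPKM in wild-type libraries. Shb-inactivated replicates 2 and 5 stood above the wild-type range and replicate 3 below it. The log2 difference was 0.19 (SE 0.26, unadjusted p = 0.480, limma) and did not pass the test. Its size rested on single libraries. Among the Shb-inactivated libraries, leaving out replicate 2, 3 or 5 gave 0.067, 0.33 or 0.069. Among the wild-type libraries, leaving out replicate 1 or 3 gave 0.12 or 0.31.

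Slc2a3 was 3.20 FPKM at its lowest, 5.34 FPKM at the median and 9.01 FPKM at its highest in Shb-inactivated libraries, and 15.98, 7.86, 8.53 and 7.59 FPKM in wild-type libraries. Of the 6 Shb-inactivated libraries, 5 were below every wild-type library, and replicate 2 overlapped the wild-type range. The means were 5.69 ± 2.27 FPKM in Shb-inactivated libraries (SD, n = 6) and 9.99 ± 4.01 FPKM in wild-type libraries (SD, n = 4), a ratio of 0.569. The log2 difference was -0.73 (SE 0.28, 95% interval -1.35 to -0.10), with a limma p of 0.0278 before adjustment and 0.989 after it. Wild-type replicate 1 held the highest value, and without it the log2 difference was -0.50. In CD31+ cells sorted from a tumour, fewer cells of a type and less RNA per cell cannot be told apart. Markers of several other cell types had log2 differences below 0 beside it, the melanoma and macrophage markers given above among them. Macrophage and monocyte markers summed to 4971.4 and 4310.04 FPKM in Shb-inactivated replicates 3 and 4, where Slc2a3 was lowest. In wild-type replicate 3 they summed to 6788 FPKM, and Slc2a3 was 8.53 FPKM. The melanoma markers had their highest sum, 1335 FPKM, in wild-type replicate 1. Pericyte and smooth muscle markers had log2 differences above 0. T and B cell markers summed to 22.8 to 153 FPKM in Shb-inactivated libraries, and to 207, 91.6, 102 and 175 FPKM in wild-type libraries, with all 10 tested markers below 0. Platelet markers summed to 576 and 514 FPKM in Shb-inactivated replicates 3 and 4, where Slc2a3 was lowest at 3.20 and 3.93 FPKM. They summed to 87.5 to 116 FPKM in the other Shb-inactivated libraries, and to 185, 323, 999 and 158 FPKM in wild-type libraries. All 6 platelet markers had log2 differences below 0. The part of these cells in the Slc2a3 difference and in its share of the glucose transporters was not tested. Slc2a3 lies on the minus strand of chromosome 6, from 122727809 to 122801640 (GRCm38).

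Slc16a3 encodes MCT4, a lactate exporter that hypoxia induces in many cells. It was 19.1 FPKM at its lowest, 34.9 FPKM at the median and 56.2 FPKM at its highest in Shb-inactivated libraries, and 31.4, 36.5, 60.5 and 34.9 FPKM in wild-type libraries. The highest library of all was wild-type replicate 3, the one rich in macrophage and neutrophil transcripts. The log2 difference was -0.20 (SE 0.27, unadjusted p = 0.474, limma). Without the 3 libraries rich in myeloid transcripts it was 0.17, so its sign depended on them. Among the Shb-inactivated libraries, leaving out replicate 2 or 3 gave -0.34 or -0.040, and among the wild-type libraries, leaving out replicate 1 or 3 gave -0.31 or -0.00040.

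The first step of glycolysis, phosphorylation of glucose, had Hk1 as its most abundant transcript in every library. Hk1 averaged 54.1 ± 12.3 FPKM in Shb-inactivated libraries (SD, n = 6) and 55.4 ± 16.7 FPKM in wild-type libraries (SD, n = 4), with a log2 difference of -0.02 (SE 0.21). The lowest Hk1 value was 35.8 FPKM in Shb-inactivated replicate 3 and the highest 79.9 FPKM in wild-type replicate 1. Hk3, the hexokinase of white blood cells, is not among the members and was chosen after its values had been seen. It was 21.44 and 23.84 FPKM in Shb-inactivated replicates 3 and 4 and 0.18 to 0.77 FPKM in the other 4, and 2.63, 2.62, 29.79 and 0.21 FPKM in wild-type libraries. The 3 libraries rich in myeloid transcripts thus held the high Hk3 values. Hk1 is overlapped by its antisense gene Hk1os, and whether the authors counted by strand is not given in the sources used here.

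Hk2, the inducible hexokinase, was the member with the widest spread. It was 1.22, 6.83, 8.70, 14.91, 1.29 and 2.51 FPKM in Shb-inactivated replicates 1 to 6, and 50.93, 4.98, 14.99 and 2.83 FPKM in wild-type replicates 1 to 4. Wild-type replicate 1 alone was more than 3 times any other library, and the rest of the groups overlapped. The means were 5.91 ± 5.38 FPKM in Shb-inactivated libraries and 18.4 ± 22.3 FPKM in wild-type libraries, a ratio of 0.321, and the log2 difference was -1.15 (SE 0.79, unadjusted p = 0.172, limma). Without wild-type replicate 1 it was -0.44, and without wild-type replicate 4 it was -1.69. The gene lies on the minus strand of chromosome 6, from 82725025 to 82774454 (GRCm38).

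Of the 10 members in the upper part of the pathway, 0 passed the test in either direction, and their median log2 difference was -0.14. Gpi1, which isomerises glucose phosphate, averaged 169 ± 26.1 FPKM in Shb-inactivated and 182 ± 27.3 FPKM in wild-type libraries. The phosphofructokinase subunit Pfkp averaged 80.6 ± 15.6 FPKM in Shb-inactivated and 77.7 ± 4.02 FPKM in wild-type libraries, and Pfkl 36.7 ± 8.53 FPKM in Shb-inactivated and 43.6 ± 14.2 FPKM in wild-type libraries. Pfkl was far higher in wild-type replicate 1, at 64.8 FPKM, than in the other 3 wild-type libraries, at 34.4 to 38.0 FPKM.

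PFKFB3 makes the activator of phosphofructokinase and is a known driver of endothelial sprouting. Pfkfb3 averaged 20.2 ± 2.92 FPKM in Shb-inactivated libraries and 19.5 ± 5.64 FPKM in wild-type libraries, a log2 difference of 0.07 (SE 0.17). Its paralog Pfkfb4 was much lower, at 0.96, 1.52, 3.11, 3.26, 0.73 and 1.05 FPKM in Shb-inactivated and 2.68, 1.21, 6.73 and 0.88 FPKM in wild-type libraries. The 3 libraries rich in myeloid transcripts held the 3 highest Pfkfb4 values.

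The aldolase of these libraries was Aldoa, at 445 ± 82.4 FPKM in Shb-inactivated and 448 ± 126 FPKM in wild-type libraries. Aldoc, known mainly from brain, reached at most 1.96 FPKM in Shb-inactivated and 3.42 FPKM in wild-type libraries. Tpi1, which interconverts the triose phosphates, averaged 195 ± 41.6 FPKM in Shb-inactivated and 219 ± 36.5 FPKM in wild-type libraries (log2 difference -0.18, SE 0.18).

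The lower part of the pathway, which yields ATP and pyruvate, held the most abundant members. Gapdh, which oxidises triose phosphate and is often used to scale other genes, was 458 FPKM at its lowest, 635 FPKM at the median and 961 FPKM at its highest in Shb-inactivated libraries, and 613, 634, 789.6 and 604 FPKM in wild-type libraries. The Shb-inactivated libraries spread to both sides of the wild-type range. The log2 difference of Gapdh was 0.0038 (SE 0.22), and without the 3 libraries low in small nucleolar RNAs it was -0.26.

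Pkm, which makes pyruvate, averaged 658 ± 128 FPKM in Shb-inactivated and 666 ± 45.1 FPKM in wild-type libraries. Pgk1, the first ATP-making enzyme, averaged 306 ± 47.7 FPKM in Shb-inactivated and 322 ± 32.0 FPKM in wild-type libraries. Eno1, the broadly expressed enolase, averaged 273 ± 32.2 FPKM in Shb-inactivated and 313 ± 71.8 FPKM in wild-type libraries. None of these passed the test, and their log2 differences were -0.04, -0.08 and -0.18.

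Pgam1, the mutase between Pgk1 and enolase, averaged 148 ± 35.6 FPKM in Shb-inactivated and 154 ± 38.5 FPKM in wild-type libraries. Eno2, the enolase of neurons, was the member that failed the filter on low values. It was 0.25 to 1.08 FPKM in Shb-inactivated libraries and 3.76, 0.66, 0.73 and 0.70 FPKM in wild-type libraries, so wild-type replicate 1 alone was high. Gapdh has 77 near-identical copies elsewhere in the genome (at least 95% identity over 300 bases), of which 59 were in the files, with a summed level of 1.11% of that of Gapdh.

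At the fork after pyruvate, Ldha makes lactate, and PDK1 restrains the oxidation of pyruvate in mitochondria. Ldha averaged 425 ± 50.2 FPKM in Shb-inactivated libraries and 445 ± 31.1 FPKM in wild-type libraries, a log2 difference of -0.07 (SE 0.12). It was the member that varied least, 1.36-fold between its highest and lowest library. Pdk1 averaged 37.6 ± 8.65 FPKM in Shb-inactivated and 37.7 ± 7.87 FPKM in wild-type libraries.

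The oxygen sensors and the factors they control gave 0 calls among 4 genes, with a median log2 difference of 0.11. Hif1a encodes the broadly expressed HIF-1α, which is controlled mainly through its protein. It was 109.8 FPKM at its lowest, 115.8 FPKM at the median and 190.1 FPKM at its highest in Shb-inactivated libraries, and 90.6, 124, 122 and 124 FPKM in wild-type libraries. Of the Shb-inactivated libraries, replicates 5 and 6 lay above the wild-type range, and the log2 difference was 0.16 (SE 0.17, unadjusted p = 0.368, limma).

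Epas1 encodes HIF-2α, the family member typical of endothelium. It was 99.1, 100.2, 56.2, 60.01, 73.2 and 63.3 FPKM in Shb-inactivated replicates 1 to 6, and 69.3, 58.1, 53.9 and 53.8 FPKM in wild-type replicates 1 to 4. Replicates 1, 2 and 5 of the Shb-inactivated group lay above every wild-type library. The means were 75.3 ± 19.7 FPKM in Shb-inactivated and 58.8 ± 7.30 FPKM in wild-type libraries, and the log2 difference was 0.32 (SE 0.19, unadjusted p = 0.113, limma). In both groups the libraries low in small nucleolar RNAs were the highest, with means of 99.6 FPKM in Shb-inactivated replicates 1 and 2 and 69.3 FPKM in wild-type replicate 1. The other libraries averaged 63.2 FPKM in the Shb-inactivated and 55.3 FPKM in the wild-type group. Without the 3 libraries low in these RNAs the log2 difference was 0.18, and their part in it was not tested further. The median log2 difference of the 15 endothelial markers, all above 0, was 0.31, and its part was not tested either.

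Egln1 and Egln3 encode the prolyl hydroxylases PHD2 and PHD3, and Egln3 is itself a target of the factors. Egln1 averaged 17.7 ± 2.94 FPKM in Shb-inactivated and 18.5 ± 3.74 FPKM in wild-type libraries. Egln3 was 7.24, 12.90, 3.06, 6.87, 20.18 and 10.90 FPKM in Shb-inactivated and 4.55, 9.68, 13.16 and 8.88 FPKM in wild-type libraries. Shb-inactivated libraries held both the highest and the lowest Egln3 value, and the log2 difference was 0.05 (SE 0.42), an interval of -0.89 to 0.99.

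Among the other hypoxia targets, 0 of 9 passed the test, and the largest differences ran in opposite directions. Ddit4 encodes REDD1, which restrains mTORC1 signalling under stress. It was 21.2, 52.3, 17.3, 17.8, 25.7 and 18.4 FPKM in Shb-inactivated replicates 1 to 6, and 16.3, 14.2, 18.1 and 12.8 FPKM in wild-type replicates 1 to 4. Of the 6 Shb-inactivated libraries, 4 lay above every wild-type library, and replicate 2 stood far above the rest. The fitted log2 difference was 0.59 (SE 0.28, limma unadjusted p = 0.0617, adjusted p = 0.989), and without that replicate it was 0.37.

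Ndrg1 encodes a stress-responsive protein used as a marker of hypoxia. It was 68.6, 107, 49.9, 70.1, 125 and 79.9 FPKM in Shb-inactivated replicates 1 to 6, and 44.6, 57.2, 73.2 and 58.2 FPKM in wild-type replicates 1 to 4. Replicates 2, 5 and 6 of the Shb-inactivated group lay above the wild-type range, and the other 3 within it. Its log2 difference was 0.47 (SE 0.24, limma unadjusted p = 0.0832, adjusted p = 0.989). Leaving out the 3 myeloid-rich libraries gave 0.80, and leaving out the 3 with little small nucleolar RNA gave 0.30. Ndrg1 shares exon positions with Gm17035 and Gm2895 on the other strand.

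Ankrd37, an early and strong target of HIF-1 in other systems, was 22.2, 31.7, 16.6, 19.1, 73.2 and 30.4 FPKM in Shb-inactivated libraries and 11.97, 32.9, 11.47 and 30.8 FPKM in wild-type libraries. Shb-inactivated replicate 5 was more than 2-fold above every other library, and the groups overlapped below it (log2 difference 0.52, SE 0.44). The difference was 0.25 without that replicate, 0.30 without wild-type replicate 1 and 0.28 without wild-type replicate 3. It was 0.76 without wild-type replicate 2 and 0.73 without wild-type replicate 4. Shb-inactivated replicate 5 also had the highest Pfkp, Ndrg1, Egln3, Hif1a and Pdk1 values, and the highest summed pericyte and smooth muscle markers, 739.6 FPKM against 118 to 360 FPKM in the other libraries. The part of these cells in its values was not tested.

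Bnip3 and Bnip3l encode receptors that send mitochondria to autophagy. Bnip3 was 14.3, 29.8, 45.6, 68.8, 88.0 and 41.4 FPKM in Shb-inactivated and 24.9, 34.1, 91.6 and 33.96 FPKM in wild-type libraries. It covered a wide range inside each group, and the log2 difference of 0.03 had a standard error of 0.49. Bnip3l was steadier, at 62.4 ± 13.4 FPKM in Shb-inactivated and 53.8 ± 8.42 FPKM in wild-type libraries (log2 difference 0.19, SE 0.17).

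Car9, the membrane carbonic anhydrase that is a classic hypoxia marker of tumour cells, was 1.35, 2.88, 1.34, 3.02, 1.17 and 2.77 FPKM in Shb-inactivated libraries and 29.74, 4.97, 2.64 and 2.37 FPKM in wild-type libraries. Wild-type replicate 1 was nearly 6 times the next library, and 3 of the 6 Shb-inactivated libraries were below every wild-type library. Its log2 difference was -1.21 (SE 0.56, limma unadjusted p = 0.0535, adjusted p = 0.989), and without wild-type replicate 1 it was -0.49. The gene lies on the plus strand of chromosome 4, from 43506966 to 43513729 (GRCm38).

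P4ha1 and P4ha2 encode collagen prolyl hydroxylases, and Kdm3a a histone demethylase. P4ha1 averaged 62.0 ± 16.1 FPKM in Shb-inactivated and 57.9 ± 8.78 FPKM in wild-type libraries. P4ha2 averaged 18.5 ± 3.07 FPKM in Shb-inactivated and 19.5 ± 4.54 FPKM in wild-type libraries. Kdm3a averaged 12.1 ± 2.29 FPKM in Shb-inactivated and 13.04 ± 3.31 FPKM in wild-type libraries. Their log2 differences were 0.07, -0.06 and -0.09, each smaller than its standard error.

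**Figure D3:**
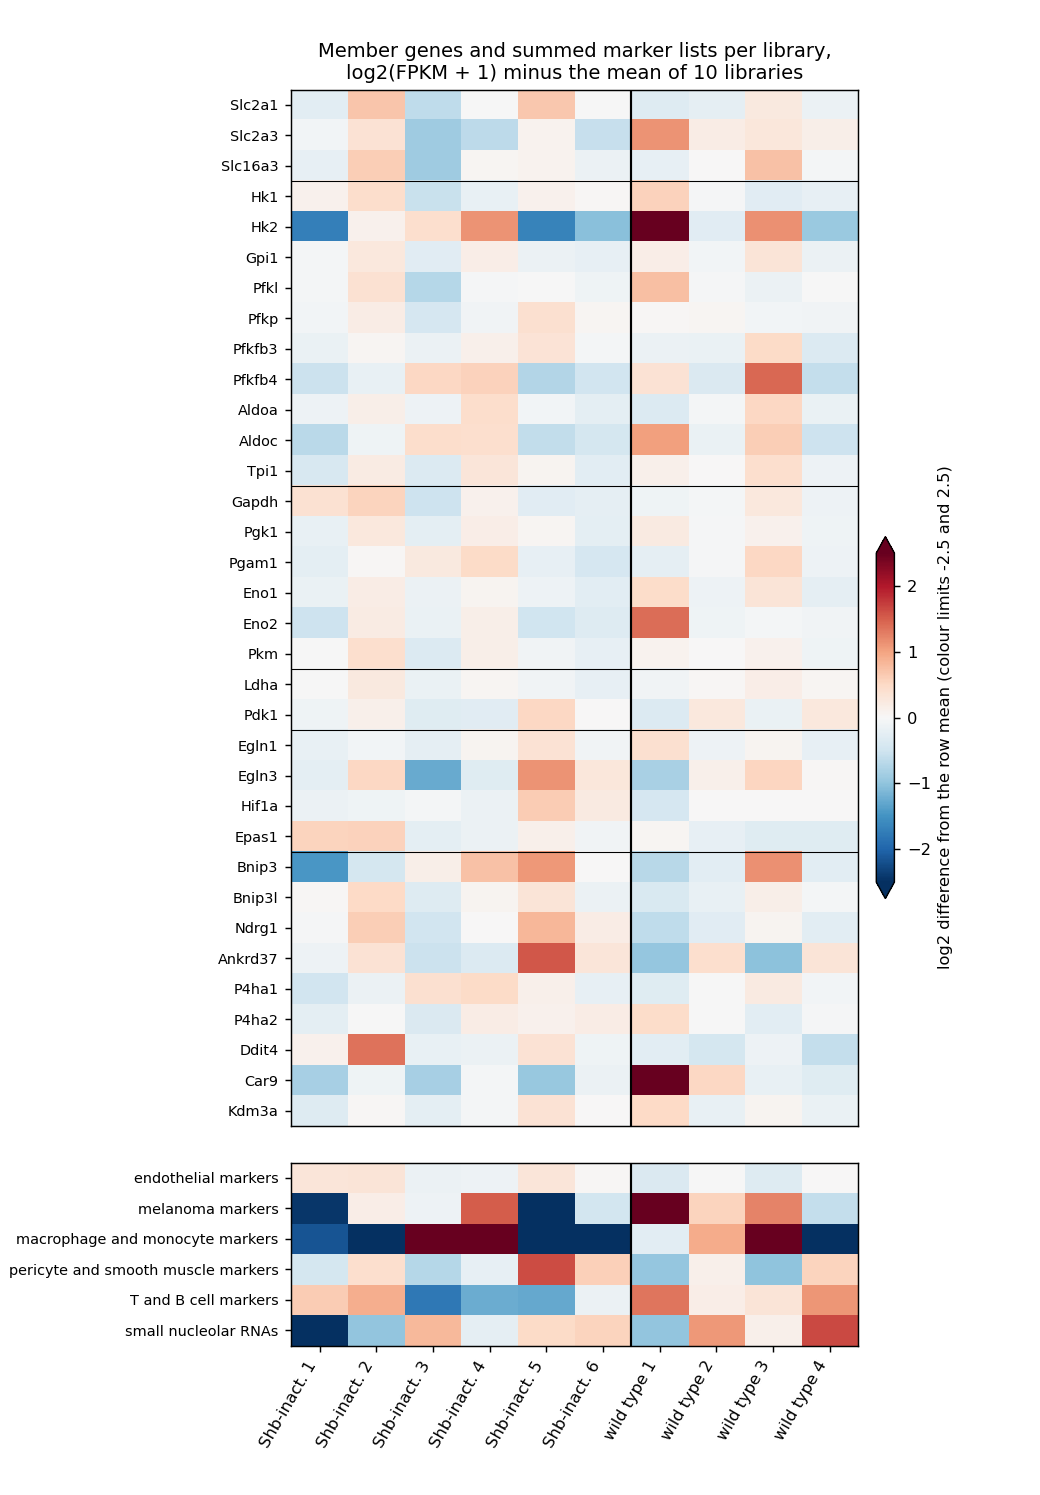
Each member (upper block, by role) and summed marker lists (lower block) as log2(FPKM + 1) minus the mean of the 10 libraries, with 6 Shb-inactivated columns left of 4 wild-type columns. Hk2 and Car9 are highest in wild-type replicate 1, as are the melanoma markers, and most members show no colour difference between the groups.

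Each member has 1 highest and 1 lowest library, and both groups held some of each. The counts that follow were not set against those of all genes. Wild-type replicate 1 was the highest library for 11 of the 34 members, wild-type replicate 3 for 8, Shb-inactivated replicate 2 for 8, Shb-inactivated replicate 5 for 6 and Shb-inactivated replicate 4 for 1. Shb-inactivated replicate 3 was the lowest for 12 members, among them Slc2a1, Slc2a3, Slc16a3, Pfkl, Pfkp, Gapdh and Pkm.

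The balance between paired isoforms was compared as a share of their summed FPKM, with an exact permutation test of the difference of means over all 210 splits, two-sided. Of 10 pairs, 0 passed after adjustment over the 10, and 1 had an unadjusted p under 0.05. That pair was the glucose transporters. Slc2a3 made up 14.3%, 10.6%, 9.66%, 7.79%, 8.80% and 8.34% of Slc2a1 plus Slc2a3 in Shb-inactivated replicates 1 to 6, and 30.0%, 16.5%, 13.2% and 15.3% in wild-type replicates 1 to 4. Of the 6 Shb-inactivated libraries, 5 lay below every wild-type library, and replicate 1 overlapped with wild-type replicate 3. The means were 9.91% ± 2.35 in Shb-inactivated libraries (SD, n = 6) and 18.8% ± 7.62 in wild-type libraries (SD, n = 4). The difference was -8.86 percentage points, with an exact permutation p of 0.00952, or 0.0952 after adjustment. Without wild-type replicate 1 the difference was -5.12 points and the exact permutation p 0.0238 before adjustment. The share of Slc2a3 is not independent of the Slc2a3 level above.

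The hexokinase share gave no such separation. Hk2 made up 2.08%, 8.59%, 19.5%, 24.2%, 2.21% and 4.39% of Hk1 plus Hk2 in Shb-inactivated libraries, and 38.9%, 8.77%, 25.7% and 5.76% in wild-type libraries. Each group held libraries in which Hk1 made up nearly everything and libraries with a sizeable part of Hk2, so the groups overlapped. The means were 10.2% ± 9.47 in Shb-inactivated and 19.8% ± 15.5 in wild-type libraries (exact permutation p = 0.210, adjusted 0.548). Without the 3 libraries low in small nucleolar RNAs the difference of -9.61 points became -0.82 points. Without wild-type replicate 1 it was -3.23 points. Other settings made it larger. It was -13.5 points without the 3 libraries rich in myeloid transcripts (exact permutation p = 0.0571, unadjusted) and -14.3 points without wild-type replicate 4.

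For the other 8 pairs, 0 shares passed the test, with exact permutation p-values of 0.162 to 0.852. Pfkp made up 68.8% ± 3.48 of Pfkl plus Pfkp in Shb-inactivated and 64.6% ± 6.27 in wild-type libraries. Epas1 made up 36.7% ± 8.49 of Hif1a plus Epas1 in Shb-inactivated and 34.04% ± 6.24 in wild-type libraries, and Hif1a was the higher of the 2 transcripts in every library. Aldoc and Eno2 stayed under 1% of their pairs in every library, so Aldoa and Eno1 carried nearly all aldolase and enolase RNA.

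**Figure D4:**
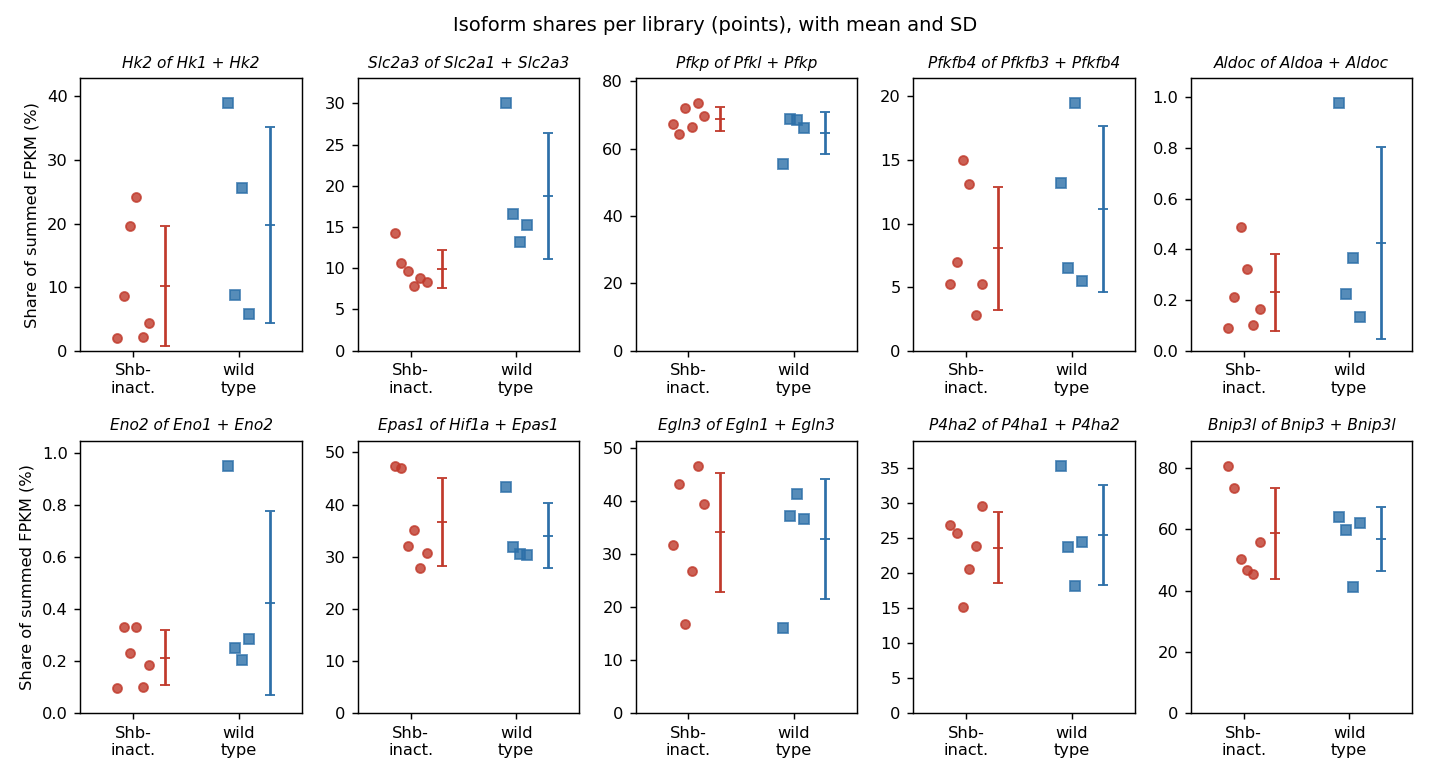
Share of summed FPKM, in percent, taken by one isoform of each of 10 pairs, with one point per library and the mean ± SD beside it, Shb-inactivated left of wild type. Slc2a3 of Slc2a1 plus Slc2a3 is the pair with the least overlap, and wild-type replicate 1 is the highest point of both upper left panels.

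Since melanoma and myeloid transcripts varied between libraries, each member was also fitted on group together with a melanoma and a macrophage marker score, the mean log2(FPKM + 1) of each list. This model was chosen after the data had been seen. Of the members, 2 were higher with the melanoma score at an adjusted p under 0.05, where 1.87% of all genes were, the melanoma list itself included, and 0 were lower, where 0.0781% were. These 2 were Hk2, with a slope of 1.01 log2 units per unit of score (SE 0.13, limma adjusted p = 0.0030), and Car9, with 0.84 (SE 0.13, limma adjusted p = 0.0097). In Shb-inactivated replicates 1 and 5, with the lowest melanoma sums of 28.9 and 20.7 FPKM, Hk2 was 1.22 and 1.29 FPKM. In wild-type replicate 1, with 1335 FPKM of melanoma transcripts, it was 50.93 FPKM. Without that library both calls were lost and 0 members were called, but both slopes stayed above 0. For Hk2 the slope was then 0.72 (SE 0.145, limma unadjusted p = 0.00106, adjusted p = 0.156). For Car9 it was 0.49 (SE 0.121, limma unadjusted p = 0.00347, adjusted p = 0.359). Without Shb-inactivated replicate 1, 5 members were higher and 1 was lower. The share of all genes called in that setting is not given, so these counts cannot be set against a background. With the melanoma score in the model as the sole covariate, the log2 difference of Hk2 between Shb-inactivated and wild-type libraries was 0.36, and that of Car9 was -0.31.

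With the macrophage score 2 members were higher, where 8.79% of all genes were, and 2 were lower, where 4.06% were, so these counts are near the background. Pfkfb4 (slope 0.20, SE 0.04, limma adjusted p = 0.0169) and Pgam1 (slope 0.11, SE 0.03, limma adjusted p = 0.0301) were higher. Hk1 (slope -0.12, SE 0.03, limma adjusted p = 0.0225) and Pfkl (slope -0.11, SE 0.03, limma adjusted p = 0.0274) were lower. Leaving out wild-type replicate 1, wild-type replicate 3 or Shb-inactivated replicate 3 each left 0 members called with this score. Leaving out Shb-inactivated replicate 4 left 1 higher and 0 lower, leaving out replicate 6 left 1 higher, and leaving out replicate 2 left 1 lower. The shares of all genes called in these settings are not given.

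**Figure D5:**
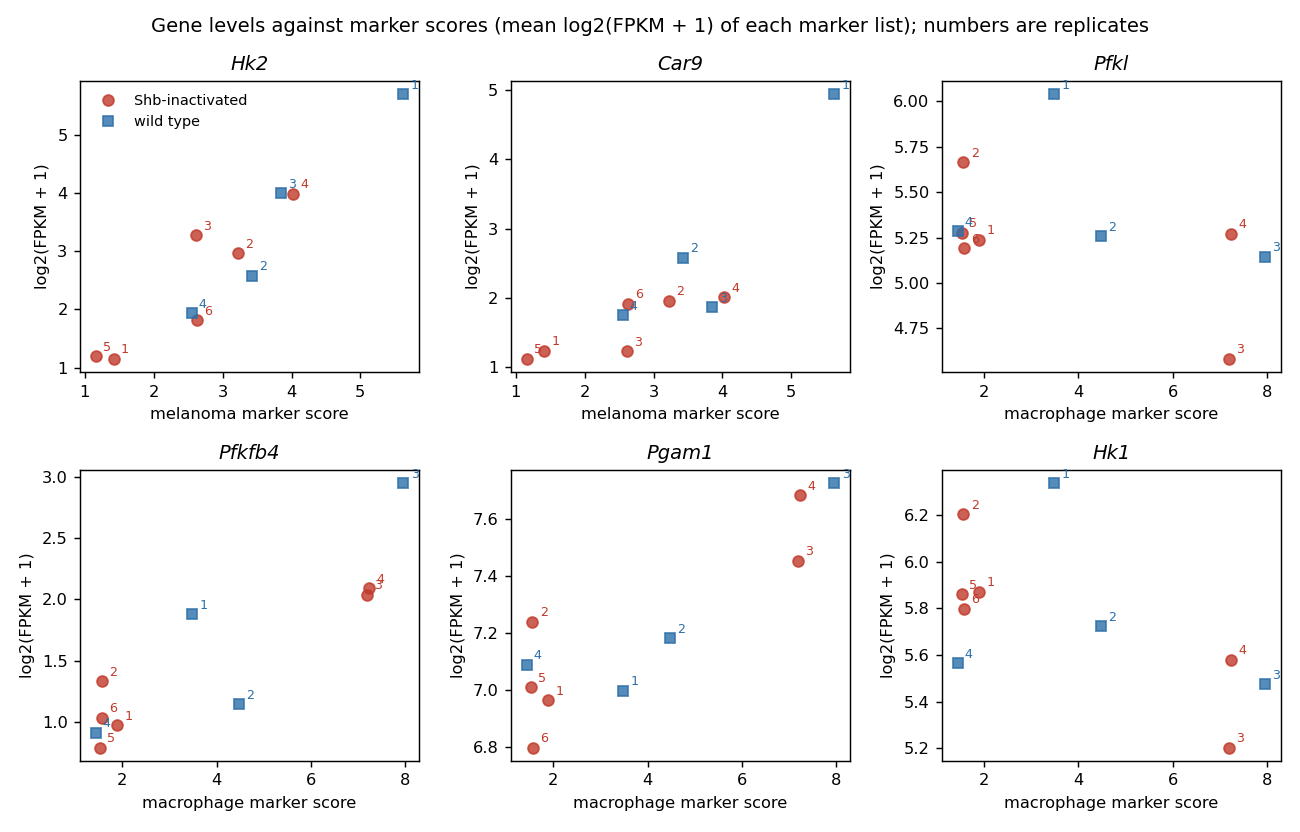
Levels of 6 members, as log2(FPKM + 1), against the melanoma score (Hk2, Car9) or the macrophage score (Pfkl, Pfkfb4, Pgam1, Hk1), with circles for Shb-inactivated and squares for wild-type libraries, numbered by replicate. Hk2 is lowest in the 2 libraries with the lowest melanoma scores, and wild-type replicate 1 is the upper right point for Hk2 and Car9.

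Other genes of the same pathways, taken from lists chosen for their role, also gave 0 calls. Of 37 other glycolysis genes in the files, 22 passed the filter, and 0 passed the adjusted limma test, with 0 at an unadjusted p under 0.05 in either direction and a median log2 difference of 0.04. Their most abundant genes were Bsg, the chaperone of the lactate transporters, at 218 ± 25.2 FPKM in Shb-inactivated and 206 ± 18.9 FPKM in wild-type libraries, and the mitochondrial pyruvate carrier genes Mpc1 and Mpc2. Mpc1 averaged 50.3 ± 10.6 FPKM in Shb-inactivated and 47.9 ± 7.99 FPKM in wild-type libraries, and Mpc2 41.9 ± 12.5 FPKM in Shb-inactivated and 37.5 ± 8.74 FPKM in wild-type libraries. The smallest unadjusted p-values belonged to the inositol transporter gene Slc2a13 (log2 difference 0.41, unadjusted p = 0.0732), the lactate transporter gene Slc16a1 (-0.25, unadjusted p = 0.0861) and the pyruvate dehydrogenase phosphatase gene Pdp1 (0.33, unadjusted p = 0.0986), all by limma and with an adjusted p = 0.989.

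Of 39 other hypoxia response genes, 35 passed the filter and 0 passed the adjusted limma test. At an unadjusted p under 0.05, 1 was higher, where 1.69% of all genes were, and 2 were lower, where 1.76% were. The median log2 difference of the list was -0.05. Stc1, which encodes the secreted protein stanniocalcin, was 86.5 FPKM at its lowest, 125 FPKM at the median and 157 FPKM at its highest in Shb-inactivated libraries, and 61.1, 87.8, 107 and 73.6 FPKM in wild-type libraries. Of the 6 Shb-inactivated libraries, 5 lay above every wild-type library (log2 difference 0.58, SE 0.20, limma unadjusted p = 0.0131, adjusted p = 0.989).

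Vegfa, the growth factor that drives vessel growth in hypoxic tissue, was 3.81, 11.08, 5.90, 11.84, 9.30 and 10.05 FPKM in Shb-inactivated libraries and 34.09, 10.43, 37.56 and 7.66 FPKM in wild-type libraries. Wild-type replicates 1 and 3 stood above all other libraries, and these had the 1335 FPKM of melanoma markers and the 6788 FPKM of macrophage markers given above. Vegfa had a log2 difference of -1.06 (SE 0.46, limma unadjusted p = 0.0427, adjusted p = 0.989), and the part of those cells in it was not tested. Mif, a cytokine gene that hypoxia induces, averaged 147 ± 25.3 FPKM in Shb-inactivated and 184 ± 17.3 FPKM in wild-type libraries (log2 difference -0.34, SE 0.14, limma unadjusted p = 0.0404, adjusted p = 0.989). Plod1, a collagen lysyl hydroxylase gene, averaged 144 ± 23.3 FPKM in Shb-inactivated and 122 ± 8.70 FPKM in wild-type libraries.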

How the data were processed

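For each library the authors deposited an FPKM value per gene symbol, with a comma as the decimal mark. TopHat2 2.1.1 and Cufflinks 2.2.1 were used with build GRCm38, per the submitters' processing notes. Neither the annotation nor the use of strand in counting is given in the sources used here. The library kit was stranded and ribosomal RNA was depleted, per the labels' protocols. FPKM keeps no read totals, so depth is unknown and no counting interval is given. Replicates were not identical (Spearman 0.892 to 0.951 between libraries).

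Groups came from the sample titles. Values were taken as log2(FPKM + 1), a scale that understates differences of low genes. The 12805 genes that reached 1 FPKM in 4 or more of the 10 libraries were fitted with limma 3.58.1 (R 4.3.3, mean-variance trend), two-sided, and adjusted by Benjamini-Hochberg over all of them. Differences are Shb-inactivated minus wild type. Isoform shares were tested by exact permutation over 210 splits. Promoters were RefSeq's of build GRCm38.p6, and for 39 of the 42 windows the bases just after the start were found in a GENCODE transcript. Gene positions are from GENCODE vM21, with both records of the symbol Aldoa joined, near-identical copies from BLAST 2.17.0+, and plots from matplotlib 3.10.9.

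The members and all lists were chosen with earlier results of these data known. All 34 members were named, with Shb, and from each list of other pathway genes the 3 most abundant and the 3 with the smallest p. Of the marker lists, Pecam1, Itgam, Sox17 and Ptprb are named, and the 2 most abundant genes of each list, also set by the rule, enter only through the sums. Of the members, 12 are overlapped in an exon by a gene on the other strand and 2 on the same strand, so their levels are uncertain to that extent. Alternatives changed the pseudocount, filter, scaling, covariates, weights and libraries.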

Additional observations from a re-analysis of the deposited data

Results flagged for a closer look

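A library was picked out where its gap to the nearest other library of its group was large against the range of the group. The rule was applied to 126 groups of values and picked out 17, and chance picks out about 1 in 20 groups. No explanation was tested.

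Of the member genes and shares picked out, 7 concern wild-type replicate 1. It was high for Pfkl (64.76 FPKM, against 34.38 to 37.96 in the other 3 wild-type libraries), Slc2a3 (15.98, against 7.59 to 8.53), Car9 (29.74, against 2.37 to 4.97) and Eno2 (3.76, against 0.66 to 0.73). It was low for Hif1a (90.62, against 122.46 to 123.84). Its Eno2 share of Eno1 plus Eno2 was 0.951% and its Epas1 share of Hif1a plus Epas1 was 43.3%, both the highest of their group. Wild-type replicate 3 was high for Gapdh (789.64 FPKM, against 603.67 to 633.83) and Bnip3 (91.61, against 24.89 to 34.07), and its summed glucose and lactate transporters were 125 FPKM, against 83.98 to 84.64.

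In the Shb-inactivated group, replicate 2 was high for Ddit4 (52.26 FPKM, against 17.32 to 25.71 in the other 5 libraries) and replicate 5 for Ankrd37 (73.15, against 16.55 to 31.74).

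Summed markers of other cells were picked out too. Shb-inactivated replicate 4 had 457 FPKM of melanoma markers, replicate 5 had 739.6 FPKM of pericyte and smooth muscle markers and replicate 2 had 84.1 FPKM of red cell markers. Wild-type replicate 3 had 6788 FPKM of macrophage and monocyte markers and 1018 FPKM of neutrophil markers.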

How the results depend on the processing

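Under every alternative run, 0 members, 0 other glycolysis genes, 0 other hypoxia response genes and 0 of the 8 further isoform shares passed the adjusted threshold, and the lowest adjusted p of a member was 0.840 (Hk2, without the 3 myeloid-rich libraries). The sign of the log2 difference held under all 22 alternatives for 10 members (Bnip3l, Car9, Ddit4, Epas1, Ldha, Ndrg1, Pfkl, Slc2a1, Slc2a3 and Tpi1) and turned under at least 1 for the other 23. The median of the members ran from -0.089 to 0.0050 when single libraries were left out. The Shb difference of -1.27 ran from -1.36 to -1.10 when single libraries were left out, and was -1.92 with pseudocount 0.1 and -0.54 with pseudocount 5. Where the log2 difference turned sign, its values follow, and the cause was not tested. With FPKM rescaled to a common sum it was Hk1 0.026, Pkm 0.012 and Pdk1 0.038. With quantile normalization it was Pfkp -0.051 and Bnip3 -0.016. With library quality weights it was Hk1 0.074, Pfkfb4 0.089, Aldoc 0.015, Egln1 0.074, Egln3 -0.080, P4ha2 0.055 and Kdm3a 0.062. With the macrophage score as a covariate it was Pfkp -0.0081, Gapdh -0.0068, Pgam1 0.030 and Egln3 -0.039. With the melanoma score as a covariate it was Hk1 0.11, Hk2 0.36, Gpi1 0.030, Pfkp -0.011, Pfkfb4 0.14, Aldoc 0.18, Pgk1 0.051, Pgam1 0.073, Eno1 0.031, Pkm 0.070, Egln1 0.038, Egln3 -0.32, Hif1a -0.053, Ankrd37 -0.046, P4ha2 0.093 and Kdm3a 0.030. With the replicate number as a block it was Pfkp -0.075, Pgam1 0.087, Pkm 0.028, Bnip3 -0.24, Egln3 -0.30 and Hif1a -0.015, and in percentage points the Egln3 share -3.19. Without the 3 myeloid-rich libraries it was Hk1 0.058, Pkm 0.034, Slc16a3 0.17, P4ha1 -0.051 and Pdk1 0.074. Without the 3 libraries with little small nucleolar RNA it was Hk1 0.023, Aldoa -0.11, Gapdh -0.26, Egln1 0.12, Egln3 -0.27, P4ha2 0.13 and Kdm3a 0.11, and in percentage points the Aldoc share 0.0292, the Egln3 share -6.00, the P4ha2 share 0.141 and the Bnip3l share -4.86. Leaving out 1 library at a time turned the sign within these ranges: Hk1 -0.12 to 0.16, Pfkp -0.047 to 0.12, Pfkfb3 -0.027 to 0.25, Pfkfb4 -0.61 to 0.065, Aldoa -0.10 to 0.18, Gapdh -0.11 to 0.11, Pgam1 -0.16 to 0.10, Pkm -0.12 to 0.028, Bnip3 -0.19 to 0.42, Egln1 -0.13 to 0.065, Egln3 -0.21 to 0.30, P4ha1 -0.019 to 0.17, P4ha2 -0.16 to 0.079, Kdm3a -0.17 to 0.056 and Pdk1 -0.12 to 0.073, and in percentage points the Egln3 share -4.32 to 4.71, the P4ha2 share -4.21 to 1.48 and the Bnip3l share -3.29 to 4.58. It gave 0 to 5 members higher and 0 to 1 lower with the melanoma score, and 0 to 3 higher and 0 to 3 lower with the macrophage score. These counts have no share of all genes beside them. Same-numbered libraries of the groups did not all deviate together (correlations 0.436, -0.319, 0.707 and -0.546), so the block pairs libraries by number alone. With it 0 members were called, and the Slc2a3 share difference was -8.20 points (exact permutation p = 0.125, the smallest that 16 sign flips of 4 pairs can give). Under its other alternatives the exact permutation p of that share, unadjusted, ran from 0.00794 to 0.0286. Low members such as Eno2, Aldoc, Pfkfb4 and Car9 are limited most by the unknown depth.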

Other observations

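Adm and Edn1, hypoxia-induced genes outside the members, were each far higher in a single library than in the others. Adm, which encodes the vessel-relaxing peptide adrenomedullin, was 70.0, 86.9, 69.7, 100.1, 291 and 139 FPKM in Shb-inactivated replicates 1 to 6, and 65.5, 108, 32.9 and 103 FPKM in wild-type replicates 1 to 4. Edn1, the gene of the vessel-constricting peptide endothelin, was 23.6, 23.5, 29.4, 36.1, 95.7 and 49.6 FPKM in Shb-inactivated and 39.0, 35.2, 15.5 and 30.8 FPKM in wild-type libraries. For both, Shb-inactivated replicate 5 was highest and wild-type replicate 3 lowest, and the groups overlapped. The log2 differences were 0.64 (SE 0.45) for Adm and 0.39 (SE 0.40) for Edn1, neither past the limma test. Adm and Edn1 were chosen after their values had been seen.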
